A study of Mus musculus with 6 samples.

Results

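The amino acid and endoplasmic reticulum (ER) stress response was followed through 10 genes, Atf4, Ddit3, Ddit4, Trib3, Chac1, Asns, Psat1, Phgdh, Sesn2 and Xbp1, chosen by symbol. All 10 were found among the 15139 rows of the deposited expression table. RNA had been sequenced from primary mouse bone marrow cells cultured to week 1 in RPMI medium with 10% serum and the cytokines IL3 (interleukin 3) at 10 ng/ml and SCF (stem cell factor) at 50 ng/ml. Wild-type (WT) cells were MxCre+ with intact Dnmt3a (+/+), and knockout (KO) cells were MxCre+ and Dnmt3a-/-, so that the Cre recombinase, driven by the interferon-inducible Mx promoter, was present in both groups. The WT group had 3 libraries (replicates 1, 2 and 3), the KO group contributed replicates 2 and 3, and KO replicate 1 was not analysed here. The sources used here give neither ages nor whether replicates were separate animals, and 1 characteristics field of the KO samples reads knockdown. The cells were a mixture, and in bulk RNA fewer cells of a type and less RNA per cell cannot be told apart.

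When amino acids run short or unfolded protein builds up in the ER, the kinases GCN2 and PERK phosphorylate the translation factor eIF2. General translation falls while ATF4, a bZIP transcription factor that is itself controlled mainly at translation, is made and switches on genes of amino acid synthesis, transport and tRNA charging. ATF4 also raises CHOP (the product of Ddit3), the pseudokinase TRIB3 and the glutathione-degrading enzyme CHAC1. In a parallel branch the ER sensor IRE1 splices Xbp1 mRNA into the form that encodes an active factor for chaperones and ER-associated degradation. Sesn2 and Ddit4 (REDD1) encode stress-induced inhibitors of mTORC1. XBP1 is also known in blood as a factor of secretory cells such as plasma cells and eosinophils.

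Levels are given as FPKM, fragments scaled to gene length and to the library's mapped total. These values hold no read totals, which leaves sequencing depth unknown. Library sums of FPKM ran from 560387 to 604368, with 11038 to 11090 genes at 1 FPKM or more. Dnmt3a, the targeted gene, stood at 6.68, 9.99 and 9.04 FPKM in WT and 2.58 and 3.42 FPKM in KO (log2 change -1.25, limma adjusted p = 0.00279). Xist and Ddx3y showed that WT replicates 2 and 3 were female, and that WT replicate 1 and both KO libraries were male. Adjusted p-values with sex as a covariate are given beside most named genes that lose or gain their call with it. Such a fit sets the KO libraries against WT replicate 1, the only male WT library. The female WT libraries then add only to the estimate of spread. Of the cell type markers, the summed level was 11872 to 13634 FPKM in WT and 28115 to 32291 FPKM in KO for 11 mast cell genes. It was 6254 to 8094 and 2635 to 2830 FPKM for 10 monocyte and macrophage genes, and 22428 to 33055 and 12845 to 16667 FPKM for 11 neutrophil genes. The 8 eosinophil genes summed to 5978 to 8833 FPKM in WT and 7977 to 10661 FPKM in KO, and 6 basophil genes to 6462 to 8060 and 8900 to 8984 FPKM. Fcer1a (log2 change 1.25) is counted in both the mast cell and the basophil sum. These sums rest on a few high genes, such as Cpa3 (6554 to 7576 FPKM in WT, 17551 to 19655 FPKM in KO). Over all tested genes 22.1% were called (limma adjusted p under 0.05). Of the mast cell genes 8 of 11 rose, while Hdc (-0.10), Cma1 (0.35) and Mcpt4 (0.34) did not pass. In monocytes and macrophages 8 of 10 fell, while Adgre1 (-0.05) and Ly6c2 (-0.04) did not pass. Neutrophil genes fell in 10 of 11, and 1 of 8 eosinophil genes rose. Basophil genes rose in 4 of 6, without Mcpt8 (-0.22) and Prss34 (-0.06). The sums were 92 to 94 FPKM in WT and 63 to 72 FPKM in KO for 9 erythroid genes, and 6 to 9 and 3 to 4 FPKM for 4 B and plasma cell genes. The part that these differences between cell types play in the results below was not tested.

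Promoter windows of the 10 genes were searched for the core of the element that ATF4 and its C/EBP partners bind. RefSeq windows of GRCm38.p6, from 250 bases before to 50 bases after the start, were found for all 10 genes (11 windows, 2 of them for Psat1). The letters TGATGNAA, the core of the C/EBP-ATF element, were searched on both strands and found in Asns, Chac1 and Trib3, and in 3.97% of all 32851 windows. The ER stress element, CCAAT and CCACG with 9 bases of any kind between them (0.119% of windows, both strands), and the unfolded protein response element TGACGTGG (0.676%, both strands) were in none of the member windows. A match is a description of letters and does not show binding. A window without a match does not show that the element is absent outside it or in other letters. The windows of the 10 genes held 10 to 30 CpG dinucleotides, against a median of 7 over all windows, of which 43.5% held at least 10. DNA methylation was not measured in these samples. The sequences below are those of the genes with the element in their window, and of Phgdh, the gene with the firmest change, whose window has none. Each runs 5′ to 3′ on the strand of its gene, with the element in capitals. The stretches before the start lie on the minus strand at chr3:98339970-98340219 for Phgdh and chr6:7693210-7693459 for Asns, and on the plus strand at chr2:119350992-119351241 for Chac1. For Trib3 the 30 bases shown lie past the RefSeq start, on the minus strand at chr2:152344028-152344057.
Phgdh: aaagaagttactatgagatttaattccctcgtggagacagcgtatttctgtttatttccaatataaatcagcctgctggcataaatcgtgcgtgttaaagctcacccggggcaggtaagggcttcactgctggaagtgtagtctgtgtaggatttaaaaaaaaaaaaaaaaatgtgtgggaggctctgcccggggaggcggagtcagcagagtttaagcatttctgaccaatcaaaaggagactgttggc
Asns: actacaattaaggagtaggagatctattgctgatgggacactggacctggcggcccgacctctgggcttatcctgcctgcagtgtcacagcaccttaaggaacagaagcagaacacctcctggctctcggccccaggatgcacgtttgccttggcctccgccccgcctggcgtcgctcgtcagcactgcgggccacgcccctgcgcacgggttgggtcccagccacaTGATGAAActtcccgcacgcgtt
Chac1: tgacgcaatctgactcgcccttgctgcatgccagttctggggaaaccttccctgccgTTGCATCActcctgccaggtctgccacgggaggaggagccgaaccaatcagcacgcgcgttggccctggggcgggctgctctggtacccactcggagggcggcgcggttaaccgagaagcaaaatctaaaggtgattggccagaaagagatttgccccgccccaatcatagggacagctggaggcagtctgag
Trib3: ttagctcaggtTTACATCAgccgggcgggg
The element lay at positions -23 to -16 in Asns and -193 to -186 in Chac1, counted back from the start, and at positions 15 to 22 past it in Trib3. In Chac1 and Trib3 it was on the strand opposite to the gene. These positions count from the RefSeq starts, which differ from the ends of the GENCODE spans given for the genes below. By GENCODE the Trib3 element lies before the start and the Asns element inside the gene.

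Few of these genes passed the test between genotypes. Of the 10, all tested, 1 passed the test, Phgdh, which fell, and none rose (limma on log2(FPKM + 1), Benjamini-Hochberg adjusted p under 0.05). Over all 11365 genes tested, 22.1% were called (1032 higher and 1475 lower in KO), and the 1 of 10 is not above that share. An unadjusted p under 0.05 was reached by 5 of the 10 and by 34.7% of all tested genes. The log2 changes of the 10 ran from -0.43 to 0.34, with a median of 0.16 against -0.04 over all tested genes. Estimates were positive for 7 genes and negative for 3, the amino acid synthesis genes Asns, Psat1 and Phgdh. The 95% intervals of Atf4, Ddit4, Chac1, Sesn2 and Asns included 0, which leaves their sign open. Both KO libraries lay above every WT library for 3 genes (Ddit3, Trib3 and Xbp1) and below for 2 (Phgdh and Psat1). Such separation held for 51.1% of all tested genes, 20.4% higher and 30.8% lower. Scaling and single libraries moved the number of these genes called by limma. It was 4 of the 10 after median-of-ratios scaling (21.1% of all genes tested in the same way) and after upper-quartile scaling (21.2%), and 3 after quantile normalization (21.2%). With sex as a covariate it was 2, against 11.5% of all genes. It was 3 without KO replicate 2 (23.7%), 2 without KO replicate 3 (16.0%) and 2 without WT replicate 3 (15.7%). Phgdh was among those called in each of these.

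**Figure D1:**
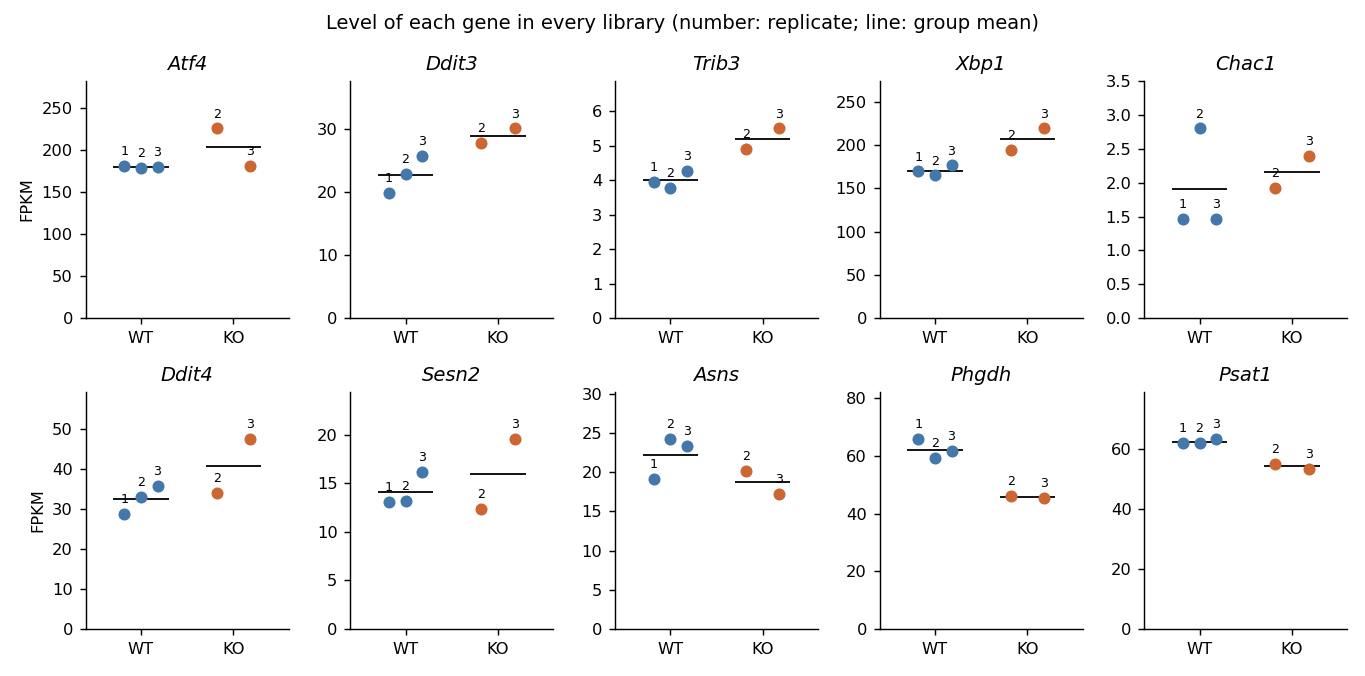
FPKM (vertical axis, from 0) of the 10 genes in the 3 WT (blue) and 2 KO (orange) libraries; the number at a point is its replicate and the black line the group mean. Phgdh and Psat1 are lower in both KO libraries than in every WT library, Ddit3, Trib3 and Xbp1 are higher in both, and the other 5 genes overlap.

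Phgdh (gene 236539; chromosome 3, 98313170 to 98339990, minus strand, GRCm38) encodes phosphoglycerate dehydrogenase, the enzyme of the first step of serine synthesis from a glycolytic intermediate. It was at 65.8, 59.2 and 61.6 FPKM in WT and 46.1 and 45.4 FPKM in KO. Both KO libraries were below all WT libraries and close to each other. The WT mean was 62.2 ± 3.36 FPKM (SD, n = 3) and the KO mean 45.7 ± 0.502 FPKM (SD, n = 2), which gives a ratio of 0.735. On the log2 scale the change was -0.43, with an SE of 0.07 (limma adjusted p = 0.00665). Its change lay between -0.52 and -0.35 over the 15 alternatives, each time past the threshold, with adjusted p up to 0.0322. The annotation lists a pseudogene, Phgdh-ps1, with which reads could be shared.

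Psat1 (gene 107272; chromosome 19, 15904678 to 15947337, minus strand) encodes phosphoserine aminotransferase, the next enzyme of that route. Its values were 61.9, 62.1 and 63.3 FPKM in WT and 55.1 and 53.3 FPKM in KO. The groups did not overlap, but the distance was small, with a log2 change of -0.20 ± 0.07 (95% interval -0.36 to -0.04; limma adjusted p = 0.0730). It passed the threshold under no alternative (adjusted p 0.0538 to 0.318). A processed pseudogene, Gm3329, lies within its span on the other strand.

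Asns (gene 27053; chromosome 6, 7675169 to 7693254, minus strand) encodes asparagine synthetase, a classic ATF4 target whose promoter holds the element printed above. It was measured at 19.2, 24.2 and 23.3 FPKM in WT and at 20.2 and 17.2 FPKM in KO. The groups overlapped because WT replicate 1, the male WT library, was below KO replicate 2. The log2 change was -0.24 ± 0.12 (interval -0.52 to 0.05; limma adjusted p = 0.211) and -0.04 with sex as a covariate (adjusted p = 0.885). A fall in Asns of the size seen for Phgdh is therefore within the interval.

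Of the genes for the transcription factors, Atf4 (gene 11911; chromosome 15, 80255184 to 80257541, plus strand) had nearly the same level in all WT libraries, 181.5, 179.2 and 180.4 FPKM. In KO it was at 226 FPKM in replicate 2 and 181 FPKM in replicate 3. One KO library was thus above WT and the other beside it. The log2 change was 0.17 ± 0.10 (interval -0.07 to 0.40; limma adjusted p = 0.291). Without KO replicate 3 it was 0.32 and passed (adjusted p = 0.0211), and without KO replicate 2 it was 0.01 (adjusted p = 0.932). These are levels of mRNA, and the amount of ATF4 protein was not measured.

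Ddit3 (gene 13198; chromosome 10, 127290774 to 127296288, plus strand), which encodes the pro-death factor CHOP, was at 19.8, 22.8 and 25.6 FPKM in WT and 27.7 and 30.0 FPKM in KO. The groups were apart, yet the highest WT value was 1.30 times the lowest. The log2 change was 0.34 ± 0.11 (interval 0.07 to 0.61; limma adjusted p = 0.0755). It passed after scaling by median of ratios, by upper quartile or by quantiles (adjusted p = 0.0491, 0.0408 and 0.0447), with sex as a covariate (0.0440) and without WT replicate 3 (0.0477). Ddit3 overlaps Mars, a tRNA synthetase gene on the other strand, and the sources used here do not say whether counting used strand. Mars had 24.8 FPKM in WT and 23.7 FPKM in KO (log2 change -0.07, adjusted p = 0.548).

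Xbp1 (gene 22433; chromosome 11, 5520659 to 5525893, plus strand) was at 169.6, 165.0 and 176.5 FPKM in WT and 194 and 219 FPKM in KO. Each KO library exceeded each WT library, and the log2 change was 0.28 ± 0.08 (interval 0.08 to 0.47). Its limma adjusted p was 0.0505, just outside the threshold. It passed after the same 3 scalings (adjusted p = 0.0274, 0.0199 and 0.0406) and without KO replicate 2 (0.0160), while with sex as a covariate the adjusted p was 0.219. A gene-level FPKM sums the unspliced and the IRE1-spliced mRNA, so that splicing cannot be read from it.

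Trib3 (gene 228775; chromosome 2, 152337422 to 152344032, minus strand), a feedback inhibitor of ATF4 and CHOP, was low, at 3.95, 3.77 and 4.26 FPKM in WT and 4.90 and 5.50 FPKM in KO. The groups were apart, with a ratio of means of 1.30 and a log2 change of 0.31 ± 0.11 (interval 0.06 to 0.56; limma adjusted p = 0.0786). It passed after median-of-ratios and upper-quartile scaling (adjusted p = 0.0483 and 0.0457).

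Chac1 (gene 69065; chromosome 2, 119351229 to 119354381, plus strand) had the lowest level of the 10, at 1.46, 2.80 and 1.47 FPKM in WT and 1.92 and 2.40 FPKM in KO. WT replicate 2 was the highest of all libraries, so the groups overlapped. The log2 change was 0.15 ± 0.22 (interval -0.36 to 0.65; limma adjusted p = 0.679), which leaves changes of either sign possible at this level.

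The inhibitors of mTORC1 differed most between the KO libraries. Ddit4 (gene 74747; chromosome 10, 59949669 to 59951834, minus strand) was at 28.6, 32.9 and 35.8 FPKM in WT and 34.0 and 47.3 FPKM in KO. KO replicate 2 lay within the WT range and KO replicate 3 above it. The log2 change was 0.30 ± 0.15 (interval -0.05 to 0.66; limma adjusted p = 0.200). Without KO replicate 2 it was 0.54 and passed (adjusted p = 0.0329), and without KO replicate 3 it was 0.07 (0.752).

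Sesn2 (gene 230784; chromosome 4, 132492032 to 132510501, minus strand), which encodes a leucine-binding inhibitor of mTORC1, was at 13.1, 13.2 and 16.2 FPKM in WT. Its lowest and its highest value were both in KO, 12.4 FPKM in replicate 2 and 19.5 FPKM in replicate 3. The log2 change was 0.14 ± 0.18 (interval -0.30 to 0.57; limma adjusted p = 0.648), and it was -0.17 without KO replicate 3. Another gene model, Gm12981, overlaps its span on the same strand.

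The ratio of KO replicate 3 to KO replicate 2 was 1.58 for Sesn2, 1.39 for Ddit4, 1.25 for Chac1, 1.13 for Xbp1, 1.12 for Trib3 and 1.08 for Ddit3. It was 0.985 for Phgdh, 0.967 for Psat1, 0.854 for Asns and 0.803 for Atf4. KO replicate 3 thus held more of 6 of the 10 genes, and 54.6% of all tested genes were higher in that library. Over all tested genes, the median absolute log2 difference between the KO libraries was 0.16.

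**Figure D2:**
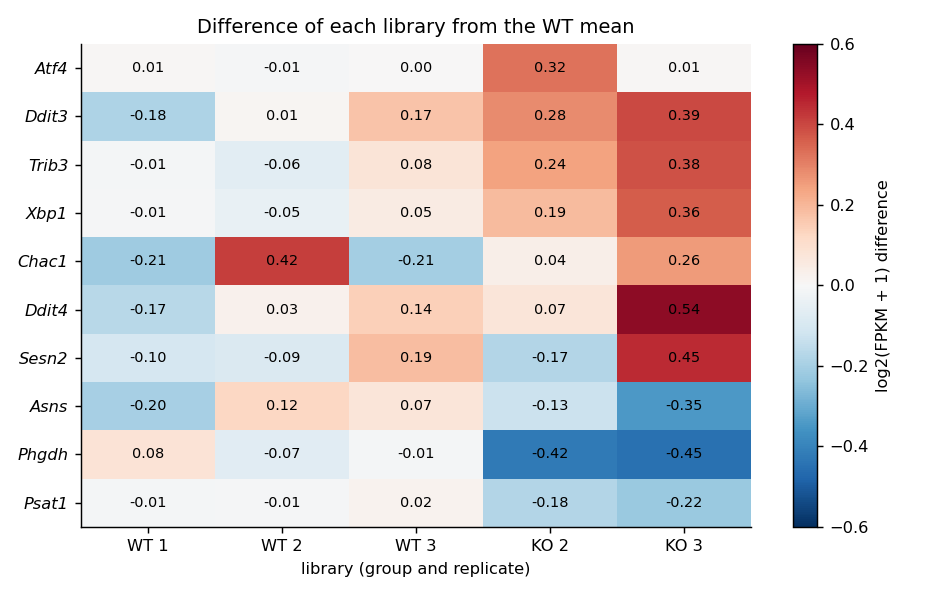
Difference of each library (columns) from the WT mean of the same gene (rows), on the log2(FPKM + 1) scale, where red is above and blue below the WT mean. KO replicate 3 is far from KO replicate 2 for Ddit4 (0.54 and 0.07) and Sesn2 (0.45 and -0.17), while both are alike for Phgdh (-0.45 and -0.42).

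The order of mean levels differed between genotypes only in Atf4 and Xbp1, which changed places. In WT it ran from Atf4 (180 FPKM) and Xbp1 (170) over Psat1 (62.4), Phgdh (62.2), Ddit4 (32.4), Ddit3 (22.7), Asns (22.2) and Sesn2 (14.1) to Trib3 (3.99) and Chac1 (1.91). The WT ranges of Psat1 and Phgdh overlapped, as did those of Ddit3 and Asns, and the other neighbours were apart. In KO the mean of Xbp1 (207 FPKM) stood beside that of Atf4 (204 FPKM), with overlapping ranges, as for Phgdh (45.7) and Ddit4 (40.7) and for Asns (18.7) and Sesn2 (15.9). Psat1 (54.2 FPKM) and Phgdh were apart in KO.

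**Figure D3:**
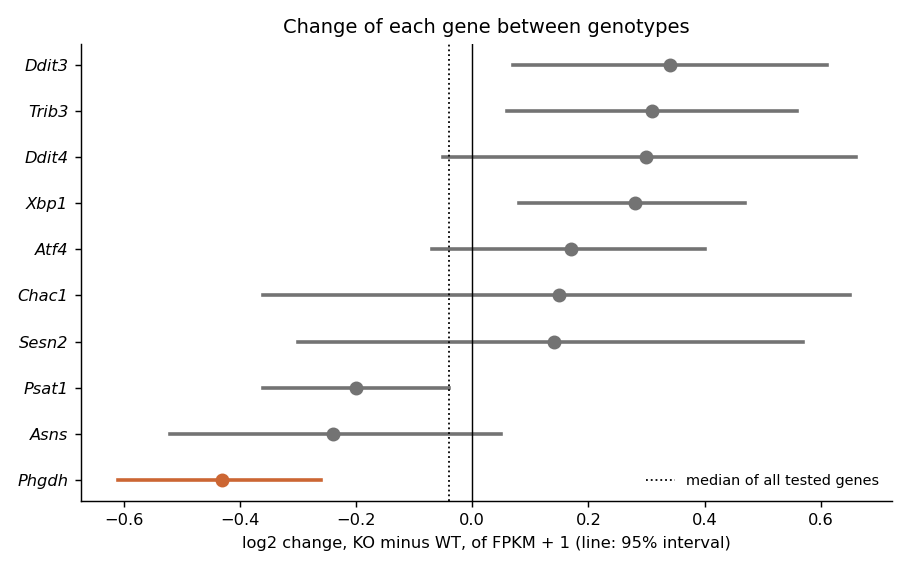
Log2 change of each gene, KO minus WT, on the log2(FPKM + 1) scale, with its 95% interval from limma; orange marks an adjusted p under 0.05 and the dotted line the median of all tested genes (-0.04). The interval of Phgdh (-0.61 to -0.26) lies below 0 and is the single one called, that of Psat1 (-0.36 to -0.04) lies below 0 without passing, and those of Ddit3, Trib3 and Xbp1 lie above 0 without passing the adjusted threshold.

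The authors' deposited table gives tests of its own. In the authors' deposited table, an unadjusted p under 0.05 was reached in the first test by 4 of the 10 genes, namely Psat1 (0.00259), Phgdh (0.00724), Trib3 (0.0253) and Xbp1 (0.0377). In a second test of the authors' deposited table, whose input the sources used here do not give, none of the 10 had an adjusted p under 0.05 (lowest 0.413, for Trib3), and that of Phgdh was 1.0.

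The rest of the pathway was read from 8 lists of 102 genes with a row in the table, of which 94 were tested. Together, 10 of them rose and 12 fell, 23.4% of those tested against 22.1% of all genes, with a median log2 change of -0.06 against -0.04. The number called was 8 with sex as a covariate, 11 without WT replicate 2, 13 without WT replicate 3 and 14 without WT replicate 1. Of all genes tested in the same way, 11.5%, 14.4%, 15.7% and 17.5% were called, so calls became fewer over all genes too.

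**Figure D4:**
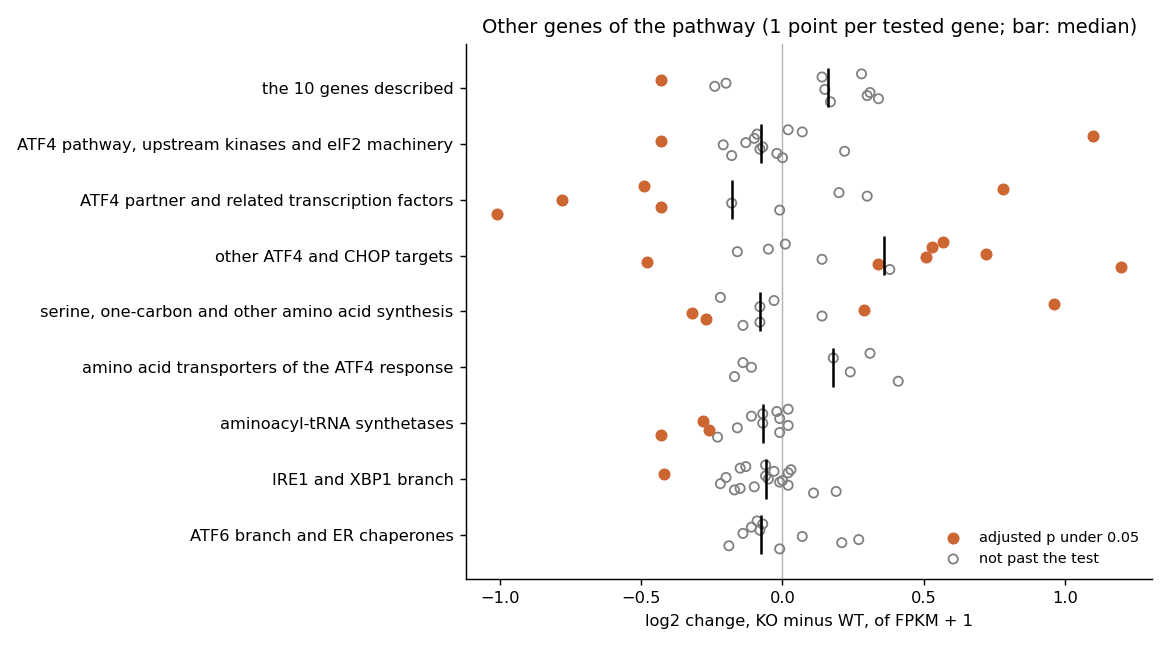
Log2 change, KO minus WT, of each tested gene (points) in the list of 10 genes and in 8 lists of the pathway (rows), on the log2(FPKM + 1) scale; filled orange points passed the test, open points did not, and the bar is the median. The points past the test lie on both sides of 0, from -1.01 for Atf3 to 1.20 for Gdf15, and the rows of transporters and of ER chaperones have none.

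Upstream, 1 of 14 genes of the eIF2 kinases and their machinery rose and 1 fell (median -0.08), 14.3% called against 22.1% of all genes. Ppp1r15a (GADD34), which recruits the phosphatase that restores eIF2, rose from 47.8, 49.3 and 53.9 FPKM to 97.2 and 122 FPKM. Its log2 change was 1.10 ± 0.11 (limma adjusted p = 0.000775), past the threshold under all 15 alternatives. Ppp1r15a also belongs to the early response genes of many cells, and all 12 immediate early genes listed rose, by log2 changes from 0.50 (Zfp36) to 2.30 (Egr3) and 2.56 (Fosb). The part of that response in the rise of Ppp1r15a was not tested. Eif2b4, a subunit of the exchange factor of eIF2, fell by 0.43 on the log2 scale (adjusted p = 0.0259), and lost the call when WT replicate 1 (adjusted p = 0.0722), WT replicate 3 (0.0884) or KO replicate 3 (0.109) was left out, which left 1 gene called in the list. With sex as a covariate its adjusted p was 0.106. The kinase genes Eif2ak3 (PERK; -0.02, interval -0.24 to 0.19) and Eif2ak4 (GCN2; 0.22, interval -0.08 to 0.52) did not pass.

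Among 9 partner and related factors, 4 fell and 1 rose (median -0.18), 55.6% called against 22.1% of all genes. Atf3, an early target of ATF4, fell from 27.0, 33.9 and 33.9 FPKM to 15.6 and 14.7 FPKM, a log2 change of -1.01 ± 0.11 (limma adjusted p = 0.00121), and it passed under all 15 alternatives. Cebpb, a dimer partner of ATF4 and CHOP and a factor of myeloid cells, was at 131.5, 137.3 and 131.3 FPKM in WT and 100.4 and 97.6 FPKM in KO. It fell by 0.43 on the log2 scale (adjusted p = 0.00483, and 0.0572 with sex as a covariate). Nupr1, a stress-induced chromatin protein, fell by 0.78 (adjusted p = 0.0244). Its call was lost when WT replicate 1 (0.0507), WT replicate 2 (0.0702) or KO replicate 3 (0.103) was left out and with sex as a covariate (0.121). Trib2, a relative of Trib3, rose by 0.78 (adjusted p = 0.0129). The call was lost without KO replicate 2 (0.69, adjusted p = 0.0665) and when sex was a covariate (0.71, 0.0956). Atf5 (-0.01, interval -0.38 to 0.37) and Cebpg (-0.18, interval -0.41 to 0.06) did not pass. These falls stood beside the lower summed levels of neutrophil and of monocyte and macrophage markers given above, whose part was not tested.

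Of 12 other targets of ATF4 and CHOP tested, 6 rose and 1 fell (58.3% called against 22.1% of all genes; median 0.36 against -0.04). Vegfa, which rose, and Ndrg1, which did not pass, are also among the hypoxia-induced genes below. Gdf15, a secreted stress cytokine, rose from 9.64, 13.4 and 12.5 FPKM to 28.0 and 28.4 FPKM (log2 change 1.20 ± 0.13, limma adjusted p = 0.00104). Sqstm1, the autophagy receptor p62, rose from 228.4, 217.2 and 232.5 FPKM to 342.4 and 404.4 FPKM (0.72 ± 0.09, adjusted p = 0.00203). Eif4ebp1, a translation repressor held off by mTORC1, was the member that fell, by 0.48 (adjusted p = 0.00770). These 3 passed under all 15 alternatives. Herpud1, of ER-associated degradation, did not pass (0.14, interval -0.11 to 0.38). The list had 4 genes called with sex as a covariate (against 11.5% of all genes), 3 without WT replicate 2 (14.4%) and 4 without WT replicate 3 (15.7%).

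In the list of serine, folate and other amino acid synthesis, 2 of 10 tested genes rose and 2 fell (median -0.08). That is 40.0% called against 22.1% of all genes. Shmt2, which converts serine to glycine in mitochondria, fell by 0.27 from 40.0 to 33.1 FPKM (limma adjusted p = 0.0440), and Mthfd1l, of mitochondrial folate metabolism, by 0.32 (0.0358). Both lost the call without any of WT replicates 1, 2 and 3 and KO replicate 3 (adjusted p 0.0701 to 0.128), and Mthfd1l also without KO replicate 2 (0.0783). Both also lost it under all 4 scalings (Shmt2 0.0627 to 0.131, Mthfd1l 0.0575 to 0.103) and with sex as a covariate (0.159 and 0.243). Cth, of cysteine synthesis, rose from 0.97, 0.97 and 0.99 FPKM to 2.30 and 3.51 FPKM (0.96 ± 0.16, adjusted p = 0.00629). It was below 1 FPKM in every WT library and so entered the test only through the KO libraries where it is high, and without either KO library it was not tested. Aldh18a1, of proline synthesis, rose by 0.29 (0.0409). Without any 1 library its change was 0.25 to 0.32 and the call was lost (adjusted p 0.0624 to 0.124), as it was with total scaling (0.0657) and with sex as a covariate (0.0826). Leaving out any 1 WT library left Cth as the only gene called in this list. Psph, the last enzyme of the route of Phgdh and Psat1, had 11.7, 11.9 and 11.1 FPKM in WT and 10.7 and 10.1 FPKM in KO. Its groups were apart, but it did not pass (-0.14, interval -0.33 to 0.05; adjusted p = 0.272), and neither did Mthfd2 (0.14, 0.399; 0.0353 without KO replicate 3).

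No amino acid transporter passed among 7 tested, against 22.1% of all genes. Their median log2 change was 0.18, and 4 had an unadjusted p under 0.05 by limma, as had 34.7% of all tested genes. Slc3a2, the heavy chain of several transporters, was at 212.3, 217.9 and 225.9 FPKM in WT and 262.7 and 253.9 FPKM in KO. Its log2 change of 0.24 (limma adjusted p = 0.0524) passed without KO replicate 3 (0.0497) and after median-of-ratios, upper-quartile, quantile or total scaling (0.0337, 0.0168, 0.0318 and 0.0418). The cystine transporter gene Slc7a11 (0.41, interval 0.03 to 0.79; adjusted p = 0.121) passed without KO replicate 2 (0.0440), and the leucine transporter gene Slc7a5 (-0.17, interval -0.35 to 0.02) did not pass.

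Of 13 aminoacyl-tRNA synthetase genes, 3 fell and none rose (median -0.07). The 23.1% called is close to the 22.1% of all genes. Cars fell by 0.43 (limma adjusted p = 0.0141), Nars by 0.28 (0.0281) and Gars by 0.26 (0.0358), the last named after its values were seen. Cars lost its call without WT replicate 2 or KO replicate 3 (0.0558 and 0.0576) and Nars without any WT replicate or KO replicate 2 (0.0544 to 0.115). With sex as a covariate none of the 3 passed (Cars 0.122, Nars 0.228), and Nars did not after upper-quartile, quantile or total scaling (0.0951, 0.116 and 0.0829). The list had 1 call when WT replicate 1 (against 17.5% of all genes) or WT replicate 3 (15.7%) was left out. It had 0 without WT replicate 2 (14.4%).

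Few genes downstream of IRE1 and ATF6 passed the test, 5.26% and 0% of those tested against 22.1% of all genes. In the branch of IRE1 and XBP1, 1 of 19 tested genes fell (median -0.06): Sdf2l1, a cofactor of ER chaperones, at 124.0, 129.4 and 130.9 FPKM in WT and 90.5 and 101.2 FPKM in KO (-0.42 ± 0.08, limma adjusted p = 0.00930; 0.0972 with sex as a covariate). Without KO replicate 2 there were 4 calls. Ern1, which encodes IRE1, and the XBP1 target gene Dnajb9 did not pass (0.11, interval -0.15 to 0.38, and 0.19, interval -0.23 to 0.60). None of 10 genes of ATF6 and the ER chaperones passed (median -0.08; 2 with an unadjusted p under 0.05 by limma), although 1 did without KO replicate 2. Hspa5, which encodes the chaperone BiP and is a standard readout of ER stress, had 422, 492 and 492 FPKM in WT and 473 and 508 FPKM in KO. Its groups overlapped, with a log2 change of 0.07 (interval -0.16 to 0.30; adjusted p = 0.670). Atf6 stood at 9.26 FPKM in WT and 9.20 FPKM in KO (-0.01, interval -0.21 to 0.19).

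Ddit4 is also induced by low oxygen and by glucocorticoids, so lists of both were read. Of 8 genes induced by hypoxia, 2 rose and 2 fell (median -0.10), 50.0% called against 22.1% of all genes. Egln3, an oxygen-sensing hydroxylase, fell by 0.69 (limma adjusted p = 0.00159) and passed under all 15 alternatives, while Vegfa rose by 0.53 (0.0206; 0.0653 without WT replicate 2, 0.0663 without WT replicate 3, 0.170 with sex as a covariate, and 0.0849 without KO replicate 3). Of 5 tested genes induced by glucocorticoids, 2 were called (40.0% against 22.1% of all genes). Dusp1, also an immediate early gene, rose by 0.70 (limma adjusted p = 0.0270), and Fkbp5 fell by 0.31 (0.0263). Dusp1 lost its call without any WT replicate (0.0595 to 0.0727), and Fkbp5 without any WT replicate or KO replicate 3 (0.0669 to 0.0889). With sex as a covariate neither passed (0.110 and 0.0808), and Fkbp5 did not after upper-quartile, quantile or total scaling (0.0687, 0.0560 and 0.0507).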

How the data were processed

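RNA of 5 mouse bone marrow cultures was compared. The authors deposited 1 table whose columns are FPKM of each library, per the file headers, with 2 decimals. The submitters' processing notes list edgeR, HISAT, StringTie 1.2.1 and mm10 (mouse), without saying what each did. The extraction selected mRNA with oligo(dT), per the labels' protocols. The sources used here do not give aligner settings, annotation, counting rules or strand use. The authors also deposited a signed fold (a score), a p-value of a first test and a p-value and adjusted p-value of a second test.

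Columns were matched to samples by title, and 23 symbols changed into dates were restored from gene numbers. limma 3.58.1 in R 4.3.3 was fitted on log2(FPKM + 1) to the 11365 genes with at least 1 FPKM in at least 2 libraries, with genotype as the only term, empirical Bayes moderation and its trend option. Adjusted p-values are by Benjamini-Hochberg across the whole fit, and the threshold was 0.05. Changes on this scale understate those of low genes. A p-value here reflects only how these libraries vary, which may be technical. The fit was tested on simulated data. Library pairs differed by a median absolute log2 difference of at least 0.0937, so none was near-identical. Named genes were the 10, Dnmt3a, the 2 largest rises and falls called in each list, and 20 further pathway genes. The members and lists were chosen with earlier results of these data known, so no list was tested as a set. Alternatives were another pseudocount (0.1), no filter, 4 scalings, 2 variance models, sex as a covariate, a replicate block and leaving out each library. With sex as a covariate the change rests on WT replicate 1 as the only male WT library. Positions are from GENCODE vM21 (GRCm38) and promoter sequences from RefSeq (GRCm38.p6).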

Additional observations from a re-analysis of the deposited data

How the results depend on the processing

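The number of genes called was 1312 with sex as a covariate and 1623 to 2659 when single libraries were left out (1623 without WT replicate 2), against 2507. The other settings stayed within 1.5 times of it. Rises were 41.2% of calls, and 54.0% after upper-quartile scaling. Of the 10 genes, 4 were called after median-of-ratios and 4 after upper-quartile scaling, 3 after quantile normalization, 2 with sex as a covariate and 1 to 3 without single libraries. Over the pathway lists the 22 calls became 8 with sex as a covariate and 11 to 23 without single libraries. The replicate numbers name libraries and do not pair them by any label. WT replicate 1 has no KO library of its number here, so the changes with the replicate block equal those without WT replicate 1. Deviations from the group means correlated at -0.0292 for replicate 2 and 0.0985 for replicate 3. With the replicate block 2058 genes were called in all, Phgdh alone of the 10, and 14 in the pathway lists.

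The share of all genes called was 11.5% with sex as a covariate, 18.1% with the replicate block and 14.4% to 17.5% without single WT libraries. By list, the eIF2 machinery had 1 call with sex as a covariate, 1 with the replicate block and 1 to 2 without single WT libraries. Partner factors had 2 with sex as a covariate. Other targets had 4 with sex as a covariate, 4 with the replicate block and 3 to 6 without single libraries. Amino acid synthesis had 2 after median-of-ratios, upper-quartile or quantile scaling and without the trend. It had 1, Cth, after total scaling, with sex as a covariate, with the replicate block or without any single WT library. Without either KO library Cth was not tested. Transporters had 2 without the filter, 1 under each of the 4 scalings and 0 to 1 without single libraries. The tRNA synthetases had 1 after upper-quartile, quantile or total scaling, without the trend or with the replicate block, 0 with sex as a covariate and 0 to 3 without single libraries. The IRE1 and XBP1 branch had 0 with sex as a covariate and 1 to 4 without single libraries, and the ATF6 branch 0 to 1.

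Sign changes were limited to values not past the test. Sesn2 was -0.17 without KO replicate 3 (up to 0.45 without single libraries). Atf5 was 0.04, 0.07, 0.05 and 0.02 under median-of-ratios, upper-quartile, quantile and total scaling, 0.16 with sex as a covariate, 0.15 without WT replicate 2 and 0.08 without KO replicate 3 (as low as -0.10 without KO replicate 2). Atf6 was 0.03, 0.07, 0.03 and 0.02 under those scalings, 0.05 with sex as a covariate, 0.02 without WT replicate 3 and 0.01 without KO replicate 3. Eif2ak3 was 0.02, 0.05, 0.02 and 0 under those scalings and 0.06 without KO replicate 2 (-0.11 without KO replicate 3). Without KO replicate 3, Dnajb9 was -0.04 and Ern1 -0.02, against 0.41 and 0.24 without KO replicate 2. Mthfd2 was -0.03 without KO replicate 2 and 0.31 without KO replicate 3, and Hspa5 was 0 with the replicate block and without WT replicate 1, and 0.12 without KO replicate 2. The cause of these differences was not tested. Where an arm keeps 1 library, it is assumed to vary like the other group. Depth is unknown for FPKM, so no limit from counting could be given.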
